A study of Homo sapiens with 9 samples.

Results

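RIPOR2, SUSD2, FAIM2, TUNAR, MFAP2 and DGKG are 6 genes of unrelated function with much lower levels in cells carrying the S239D form of PDCD4. They were chosen from the measured values, as genes with a fall of about 8-fold or more in S239D (read here against wild type), out of 60623 genes in the count table. All 6 had enough counts to be among the 16213 genes tested. In the S239D libraries RIPOR2 held 3 to 7 counts, near silence, while TUNAR kept 114 to 144. Since the S239D libraries chose them, their levels in S239D are given as a description, without a test.

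The samples were 9 RNA sequencing libraries of 22Rv1, an established human prostate carcinoma cell line. In all 9 the cells' PDCD4, a tumour suppressor that restrains translation initiation, had been depleted with a short hairpin RNA. The 3 groups of 3 libraries differed in the PDCD4 put back: wild type (WT), S239A, in which a serine is replaced by alanine and cannot be phosphorylated, or S239D, in which aspartate stands in for the phosphorylated serine. The question was what PLK1, a mitotic kinase that phosphorylates PDCD4, has to do with resistance to enzalutamide, a prostate cancer drug. Parental and knockdown-only cells were not analysed here. It is not stated whether each library had its own culture, or whether a group was 1 clone or several. P-values therefore rest on the spread among these libraries, which may be technical, and the properties of a cell line derived once cannot be told apart from the effect of its PDCD4 form.

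Libraries held 5696841 to 9688554 counts. In the S239D libraries 4.72% to 6.01% of counts came from the mitochondrial genome, against 2.83% to 3.04% in WT, and 2.99% to 5.38% in S239A. PDCD4 itself, whose counts can hold both the cells' own and the introduced copy, averaged 23.1 ± 2.4 CPM (counts scaled to library size, SD, n = 3) in WT. It averaged 22.4 ± 3.06 CPM in S239A and 17.0 ± 0.184 CPM in S239D. Genes were called at an adjusted p under 0.05 (edgeR), which over all genes tested held for 21.7% as lower and 19.7% as higher in S239D than in WT. The luminal epithelial identity of the line was visible in all groups, with all 11 markers tested (KRT8, KRT18, CDH1 and others). Their summed level was 5094 to 5192 CPM in WT, 5399 to 5993 in S239A and 3729 to 4079 in S239D, and 7 of the 11 were called lower and 2 higher in S239D than in WT. Endothelial markers summed to at most 0.98 CPM in any library, with CDH5 at 0 in all, and the immune markers CD3E and MS4A1 were at 0. The 8 fibroblast markers summed to 63.6 to 75.2 CPM in WT, 70.7 to 74.8 in S239A and 44.8 to 55.1 in S239D. Of 9 neuroendocrine and neuronal markers 4 were tested, and all 4 were called lower in S239D (CHGA, SYP, RBFOX3 and MAP2), with a summed level of 167 to 181 CPM in WT and 104 to 127 in S239D. The part of these shifts in the levels of the 6 genes was not tested. In bulk RNA, fewer cells expressing a gene and less RNA of it per cell cannot be told apart.

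The 6 genes act in separate processes. RIPOR2 encodes a cytoplasmic protein that binds and inhibits the small GTPase RHOA, and it is known from cell polarity, myoblast differentiation and the hair cells of the inner ear. SUSD2 is a membrane protein with a sushi domain that binds galectin-1 and marks mesenchymal stromal and naive pluripotent stem cells. FAIM2, of the TMBIM family of membrane proteins, inhibits death signalling through the FAS receptor, mainly in neurons. TUNAR was described as a long noncoding RNA upstream of the TCL1 genes that is needed for pluripotency and neural differentiation, and it also encodes a microprotein. MFAP2 is a small glycoprotein of the fibrillin microfibrils that scaffold elastic fibres. DGKG is a diacylglycerol kinase, which turns the second messenger diacylglycerol into phosphatidic acid and is abundant in cerebellar Purkinje cells.

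They lie on 6 chromosomes. By the coordinates of the deposited table, whose build is not given in the sources used here, RIPOR2 is on chromosome 6 (24804282 to 25042170, minus strand), SUSD2 on chromosome 22 (24181487 to 24189106, plus strand) and FAIM2 on chromosome 12 (49866896 to 49904217, minus strand). TUNAR is on chromosome 14 (95876392 to 95925571, plus strand), MFAP2 on chromosome 1 (16974502 to 16980632, minus strand) and DGKG on chromosome 3 (186105668 to 186362234, minus strand). GENCODE release 29, on GRCh38, places each of them at the same locus with at least 1 gene end in common, except SUSD2, whose ends differ slightly (24181259 to 24189110). It classes all 6 as protein-coding, TUNAR included, with 18 transcripts for RIPOR2, 11 for DGKG, 7 for FAIM2, 6 for MFAP2, 3 for TUNAR and 2 for SUSD2.

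The fall that the 6 genes share in S239D is what chose them, and a common control was not tested. Promoters of 4 of the 6 genes were found in a RefSeq table and are shown as a description (build GRCh38.p14, 250 bases before to 50 after a start site). Where a gene had several, the start site nearest to the end of the deposited gene was taken. The sequences run 5′ to 3′ on the gene's strand, and capitals mark the GC box GGGCGG on either strand.
RIPOR2 chr6:25042119-25042418: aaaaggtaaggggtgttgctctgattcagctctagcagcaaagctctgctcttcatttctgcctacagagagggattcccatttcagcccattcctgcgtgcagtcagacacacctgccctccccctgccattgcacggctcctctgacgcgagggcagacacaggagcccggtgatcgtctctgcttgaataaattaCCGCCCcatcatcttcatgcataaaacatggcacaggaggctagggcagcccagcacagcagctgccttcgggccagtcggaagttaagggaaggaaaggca
TUNAR chr14:95876198-95876497: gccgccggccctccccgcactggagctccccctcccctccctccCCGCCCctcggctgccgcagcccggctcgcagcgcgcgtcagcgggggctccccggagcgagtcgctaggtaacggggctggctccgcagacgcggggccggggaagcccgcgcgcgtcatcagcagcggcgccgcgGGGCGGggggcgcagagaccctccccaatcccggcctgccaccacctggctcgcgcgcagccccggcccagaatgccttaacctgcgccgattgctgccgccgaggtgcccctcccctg
MFAP2 chr1:16980571-16980870: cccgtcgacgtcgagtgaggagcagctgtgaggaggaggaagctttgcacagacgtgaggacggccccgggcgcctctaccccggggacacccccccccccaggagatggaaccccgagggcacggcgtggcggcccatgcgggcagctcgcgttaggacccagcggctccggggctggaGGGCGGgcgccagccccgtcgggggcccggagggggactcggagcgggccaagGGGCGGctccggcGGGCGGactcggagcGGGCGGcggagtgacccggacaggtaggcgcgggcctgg
DGKG chr3:186362185-186362484: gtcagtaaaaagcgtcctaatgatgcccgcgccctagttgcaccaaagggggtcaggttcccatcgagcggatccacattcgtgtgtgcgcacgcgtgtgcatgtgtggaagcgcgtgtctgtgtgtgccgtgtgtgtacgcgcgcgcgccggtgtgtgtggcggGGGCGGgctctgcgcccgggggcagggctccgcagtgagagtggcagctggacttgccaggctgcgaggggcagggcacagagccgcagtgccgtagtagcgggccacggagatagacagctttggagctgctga

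The promoters differed in base composition. TUNAR (78.3% GC, 39 CpG pairs), MFAP2 (76.7%, 36 CpG pairs) and DGKG (65.3%, 28 CpG pairs) were rich in CpG, against a median of 58.7% GC and 14 CpG pairs over the 35116 promoters of the table. This RIPOR2 promoter, at 55.3% GC and 9 CpG pairs, was not, but another of the 5 listed for RIPOR2, starting inside the gene, held 37 CpG pairs. The GC box, a common binding sequence of SP1-type factors, occurred 4 times in MFAP2, 2 times in TUNAR, and 1 time each in RIPOR2 and DGKG, and 45.0% of all promoters hold it. The TATA box TATAAA, the E-box CACGTG, the AP-1 site TGACTCA and the cAMP response element TGACGTCA, searched on both strands, did not occur in these 4 windows. They occur in 11.5%, 7.26%, 4.95% and 1.85% of all promoters. Among the other listed start sites, RIPOR2 had 1 with a TATA box and 1 with an AP-1 site, and MFAP2 had 1 with an AP-1 site. Which start sites the cells used is not shown by counts per gene.

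For each gene S239D was the lowest group, at 5.74% to 11.8% of the WT mean. In all 6 genes every S239D library lay below all 6 WT and S239A libraries, which held for 21.1% of all genes tested. Nothing is read from this, since low levels in S239D chose the genes. Against WT, 21.7% of all genes were called lower in S239D and 19.7% higher (edgeR quasi-likelihood test, adjusted p under 0.05), and 71 genes of 16213 lay at a log2 fold change of -3 or below. Of those 71, 66 carried a symbol. When a mean level of 5 CPM over the 9 libraries and no overlap between S239D and WT were also asked for, 10 were left, namely these 6 with PTGER3 (-3.55), GLI1 (-3.54), COL9A2 (-3.30) and TACR3 (-3.24). Just inside the threshold were DGKG (-3.07) and TACR3, and just outside were the serotonin receptor gene HTR3A (-2.99), the collagen gene COL12A1 (-2.95) and C1QL1 (-2.92).

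**Figure D1:**
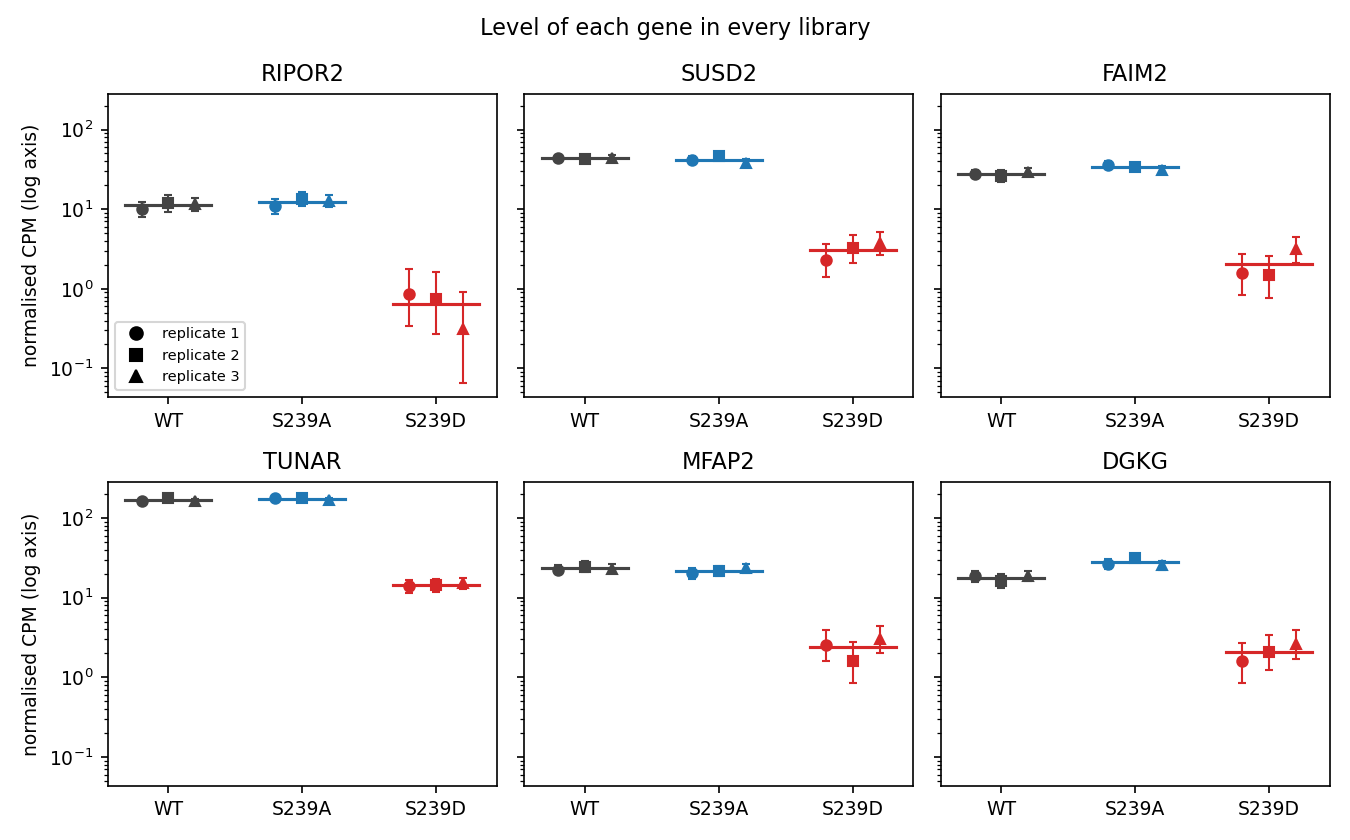
Normalised CPM (log axis) of each gene in each library, by group, with points for libraries, bars for the exact 95% Poisson interval of the count and horizontal lines for group means. S239D lies below WT and S239A in every panel. The S239A points lie above the WT points for DGKG (25.5 to 31.6 against 16.3 to 18.7 CPM) and FAIM2 (30.7 to 36.2 against 26.2 to 29.2 CPM). For FAIM2 the bars of the 2 groups overlap (up to 33 CPM in WT replicate 3 and from 27.4 CPM in S239A replicate 3).

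RIPOR2, the RHOA inhibitor, came nearest to silence. The 3 WT libraries held 92, 67 and 102 counts, the S239A libraries 88, 110 and 123, and the S239D libraries 7, 6 and 3. As normalised levels these were 9.97, 11.8 and 11.6 CPM in WT, 10.9, 13.5 and 12.6 CPM in S239A, and 0.857, 0.74 and 0.315 CPM in S239D. The lowest of the 6 other libraries stood 11.6 times above the highest S239D library. S239D replicate 3 was at 3 counts, with an exact 95% Poisson interval of 0.619 to 8.77 counts, so the 3 S239D libraries cannot be told apart within counting error. The mean level in S239D was 5.74% of that in WT, and the log2 fold change was -4.12 (95% interval -4.71 to -3.53).

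SUSD2, the galectin-1 binding membrane protein, had the smallest spread of the 6 in WT. It stood at 43.5, 42.7 and 43.9 CPM in WT, at 41.2, 46.1 and 38.3 CPM in S239A, and at 2.33, 3.21 and 3.78 CPM in S239D, from 19, 26 and 36 counts. S239D thus kept 7.17% of the WT level, a log2 fold change of -3.78 (95% interval -4.12 to -3.45).

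FAIM2 is the FAS pathway inhibitor. Its levels were 27.6, 26.2 and 29.2 CPM in WT and 36.2, 33.8 and 30.7 CPM in S239A. In S239D they were 1.59, 1.48 and 3.15 CPM, from 13, 12 and 30 counts. S239D replicate 3 was the highest of its group. The exact 95% Poisson intervals of the counts overlapped only narrowly (6.2 to 21 for replicate 2 and 20.2 to 42.8 for replicate 3). The coefficient of variation of FAIM2 in S239D was 45%, where counting error alone gives 23.4%. The log2 fold change against WT was -3.70 (95% interval -4.14 to -3.26).

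TUNAR was the most abundant of the 6 and therefore the most precisely measured. Its levels were 164, 178 and 164 CPM in WT and 176, 179 and 170 CPM in S239A. They were 14, 14.3 and 15.1 CPM in S239D, from 114, 116 and 144 counts. The S239D libraries agree within sampling noise, with a coefficient of variation of 4.10% where counting error alone gives 8.96%. TUNAR thus remained detected at 8.57% of its WT level, a log2 fold change of -3.54 (95% interval -3.74 to -3.34).

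MFAP2, the microfibril protein, stood at 22.5, 24.6 and 23.2 CPM in WT and at 20.2, 21.9 and 23.3 CPM in S239A. In S239D it was at 2.57, 1.60 and 3.04 CPM, from 21, 13 and 29 counts, with replicate 2 the lowest. The group kept 10.3% of the WT level, a log2 fold change of -3.26 (95% interval -3.65 to -2.86).

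DGKG, the diacylglycerol kinase, differed from the others in S239A. Its levels were 18.5, 16.3 and 18.7 CPM in WT, 26.5, 31.6 and 25.5 CPM in S239A, and 1.59, 2.10 and 2.62 CPM in S239D, from 13, 17 and 25 counts. The S239D libraries kept 11.8% of the WT level, a log2 fold change of -3.07 (95% interval -3.48 to -2.66). Set against S239A the difference was larger, at -3.70 (95% interval -4.10 to -3.31). For the other 5 genes the log2 fold changes of S239D against S239A were -4.28 for RIPOR2, -3.73 for SUSD2, -3.97 for FAIM2, -3.59 for TUNAR and -3.16 for MFAP2. Over all genes 43.6% were called between S239D and S239A, and nothing is read from this for the 6, since both comparisons share the S239D libraries that chose them.

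On the log2 scale, relative to the mean of the group, S239D replicate 3 was the highest for SUSD2 (0.29), FAIM2 (0.62), TUNAR (0.064), MFAP2 (0.35) and DGKG (0.31). For RIPOR2, where it held 3 counts, it was the lowest (-0.60). Replicate 2, which had the highest mitochondrial share (6.01%), was the lowest for FAIM2 (-0.36) and MFAP2 (-0.48). Few counts stand behind each of these values, and the deviations of TUNAR, the gene with most counts, were only -0.049 to 0.064.

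The genes were chosen on their fall in S239D and not on a difference between S239A and WT, and that difference was tested. Either group may have served as the reference for the fall, and here it is read against WT. The test thus shares the WT libraries with the choice and is not independent of it. Such a choice can favour genes high in WT by noise, which would lower S239A minus WT. No member was called in this comparison (0 of 6, edgeR), where 0.00617% of all genes were called, that is 1 gene of 16213. At an unadjusted p under 0.05 there was 1 of 6, against 9.76% of all genes. Limma on log2(TPM + 1) (limma on TPM below) also called 0 of 6, with 1 at an unadjusted p under 0.05. DESeq2 gave an adjusted p for 2 of the 6 and called 0, with 1 of 6 at an unadjusted p under 0.05. The member concerned was DGKG, which averaged 17.9 ± 1.32 CPM in WT and 27.9 ± 3.25 CPM in S239A (SD, n = 3). Its log2 fold change of 0.64 (SE 0.14, 95% interval 0.34 to 0.94) had an unadjusted p = 0.000444 and an edgeR adjusted p = 0.201, and all 3 S239A libraries lay above all 3 WT libraries. FAIM2 also had all 3 S239A libraries above WT (33.6 ± 2.72 against 27.7 ± 1.54 CPM, 0.27, 95% interval -0.039 to 0.59, edgeR adjusted p = 0.567). Such a separation was seen in 2 of the 6 genes, against 9.94% of all genes, and S239A lay below WT throughout in 0 of the 6, against 9.55% of all genes.

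Of 17 other ways of fitting, all but DESeq2 gave DGKG an adjusted p. It passed in 2 of them, without a filter on low counts (0.63, edgeR adjusted p = 0.017) and without the S239A and S239D replicate 2 libraries (0.53, edgeR adjusted p = 0.0199). In these 2 settings calls over all genes between S239A and WT also rose, from 1 to 142 and 874. The log2 fold change of DGKG was no larger there than in the main fit (0.64). Over the alternatives its adjusted p ran from 0.017 to 0.713. For the remaining genes the S239A minus WT intervals bound any difference: -0.23 to 0.54 for RIPOR2, -0.30 to 0.20 for SUSD2, -0.11 to 0.22 for TUNAR and -0.40 to 0.20 for MFAP2, all on the log2 scale. Those intervals do not reach a 2-fold change in either direction, but they do not allow for the choice of the genes.

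**Figure D2:**
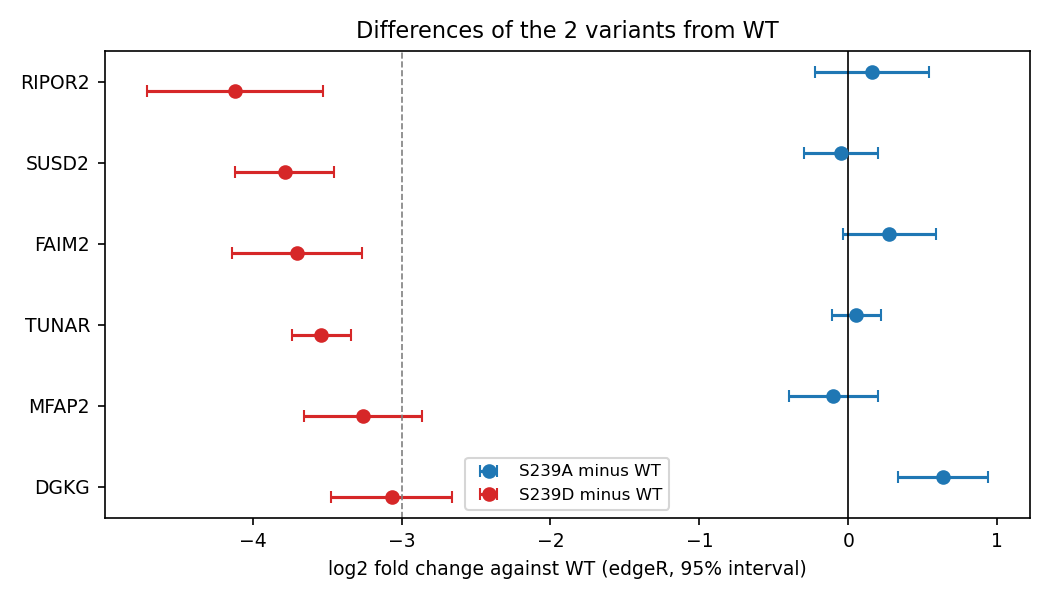
Log2 fold change of S239A (blue) and S239D (red) against WT for each gene, with points for the edgeR estimate and bars for its 95% interval, the solid line at 0 and the dashed line at the 8-fold threshold of -3. The S239A intervals of 5 genes cross 0 and that of DGKG (0.34 to 0.94) does not. The S239D intervals do not allow for the choice of the genes by their S239D levels, and the S239A intervals share the WT libraries with that choice.

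Levels of different genes were compared per length, as TPM (transcript abundance scaled for length and library). In WT the order was TUNAR at 76.8 ± 4.34 TPM, MFAP2 at 43.9 ± 2.36, SUSD2 at 19.4 ± 0.50, FAIM2 at 14.5 ± 2.12, DGKG at 5.61 ± 0.815 and RIPOR2 at 5.09 ± 0.909 TPM (SD, n = 3). DGKG and RIPOR2 did not differ beyond their spread there. In S239A the order was the same, although libraries of SUSD2 (16.6 to 20.7 TPM) and FAIM2 (11.6 to 18.9 TPM) overlapped, with DGKG at 8.74 ± 1.48 TPM and RIPOR2 at 5.00 ± 0.326 TPM. In S239D it was again TUNAR at 6.97 ± 0.352, MFAP2 at 4.41 ± 1.41, SUSD2 at 1.49 ± 0.358, FAIM2 at 1.13 ± 0.597, DGKG at 0.84 ± 0.208 and RIPOR2 at 0.207 ± 0.0493 TPM. There SUSD2 overlapped FAIM2 and FAIM2 overlapped DGKG between libraries, and the other neighbours in the order did not overlap. The ratio of mean TPM in WT to that in S239D was 24.6 for RIPOR2 and 6.67 for DGKG, where normalised CPM gave 17.4 and 8.48. The corresponding TPM ratios of SUSD2 (13), FAIM2 (12.8), TUNAR (11) and MFAP2 (9.94) were close to their CPM ratios (14, 13.3, 11.7 and 9.74). With limma on TPM, a scale that understates the change of low genes, the difference was -2.33 for RIPOR2 and -1.84 for DGKG.

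The scales parted for some genes, and the number of counts per TPM is given beside them, since it is proportional to the transcript length that the authors' RSEM estimate assigned to the gene in that library. Relative to the median gene of each library, SUSD2 stayed at 1.42 to 1.45 and TUNAR at 1.38 to 1.44 in all 9 libraries. MFAP2, a short transcript, stayed at 0.334 to 0.406. FAIM2 ran from 1.12 to 1.44 in WT, from 1.25 to 1.67 in S239A, and was at 0.631, 2.07 and 1.80 in the 3 S239D libraries. RIPOR2 ran from 1.21 to 1.58 in WT, from 1.33 to 1.83 in S239A, and was at 2.51, 2.20 and 1.42 in S239D, where its TPM are given to 2 decimals only. DGKG was at 1.89 to 2.19 in WT, 1.77 to 2.27 in S239A and 1.56 to 1.85 in S239D. Over 10398 genes with at least 5 TPM in every library, the highest of the 9 values exceeded the lowest by a median of 1.22 times. Thus 13 counts of FAIM2 made 1.70 TPM in S239D replicate 1 while 30 counts made 1.18 TPM in replicate 3. With so few counts the transcript mix of FAIM2 and RIPOR2 in S239D was not resolved.

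**Figure D3:**
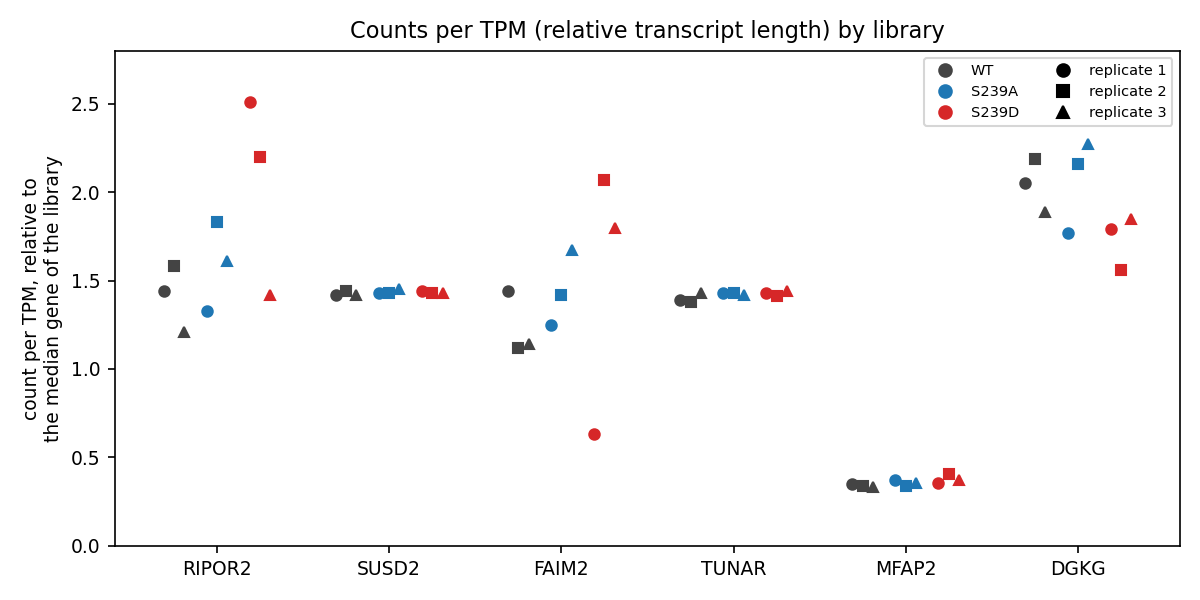
Counts per TPM of each gene in each library, relative to the median over genes of that library, coloured by group with a marker per replicate. SUSD2, TUNAR and MFAP2 lie flat, while FAIM2 spreads from 0.631 to 2.07 within S239D.

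Genes around the 6 loci were examined to see whether the low levels in S239D were shared along the chromosome. Of 89 tested genes within 500 kb of a member, 23 were called lower in S239D than in WT (25.8%) and 11 higher (12.4%), beside 21.7% and 19.7% of all genes tested. Their median log2 fold change was -0.094, where the median of all genes was 0.001. At least 2-fold lower and called were 10 of the 89 (11.2%), beside 7.22% of all genes. Without the S239A and S239D replicate 2 libraries, a setting chosen after seeing the data, 28 of 90 neighbours were called lower, while calls over all genes in either direction also rose, from 6708 to 8522.

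TUNAR had the most neighbours called at least 2-fold lower, 4 of its 11 tested ones. TCL1B, an oncogene of the TCL1 family 184 kb upstream (chromosome 14, 95686426 to 95692628), was down to single counts in S239D. The WT libraries held 61, 28 and 38 counts, the S239A libraries 53, 29 and 58, and the S239D libraries 3, 1 and 1. Mean levels were 5.28 CPM (WT), 5.35 CPM (S239A) and 0.199 CPM (S239D). The estimate for S239D minus WT was -4.67 (SE 0.476, edgeR adjusted p = 4.99e-06, log2). TCL1B is thus itself among the 71 genes at -3 or below, and its mean over the 9 libraries, 3.61 CPM, lies under the level of 5 CPM. On the other side C14orf132, 114 kb downstream, fell from 6.56 to 1.43 CPM (-2.22, edgeR adjusted p = 5.35e-05). The noncoding TCL6, 197 kb upstream, fell from 8.63 to 4.21 CPM (-1.05, edgeR adjusted p = 0.00153). AK7, an adenylate kinase gene 467 kb away, fell from 9.91 to 3.64 CPM (-1.46, edgeR adjusted p = 7.36e-05), a call lost with limma on TPM (-0.67, adjusted p = 0.0564, over the alternatives 2.72e-09 to 0.0564). The low levels did not span the whole window. ATG2B, an autophagy gene 354 kb downstream, rose (0.63, edgeR adjusted p = 0.000548), although not with limma on TPM (0.49, adjusted p = 0.075, over the alternatives 4.07e-05 to 0.075). The lymphoid oncogene TCL1A, between TCL1B and TUNAR, had at most 3 counts in any library and was not tested.

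RIPOR2 had 11 tested neighbours, of which 3 were called lower and 0 higher. GMNN, the replication licensing inhibitor geminin and the nearest tested gene (18.2 kb), fell from 60.1 to 29.7 CPM (-1.01, SE 0.119, edgeR adjusted p = 1.66e-05). KIAA0319, a neuronal gene linked to dyslexia 158 kb away, fell from 5.44 to 1.40 CPM (-1.95, edgeR adjusted p = 7.15e-05). On the other side the nearest tested gene, CARMIL1, 237 kb away, had a log2 fold change of -0.29 (edgeR adjusted p = 0.0741).

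The neighbours of FAIM2 included 8 of 18 called lower and 0 higher, mostly by small amounts. KCNH3, a neuronal potassium channel gene 309 kb away, was the 1 neighbour past 2-fold, from 18.8 to 5.12 CPM (-1.90, edgeR adjusted p = 1.6e-06). The nearest tested genes were BCDIN3D at 23.8 kb (0.056, edgeR adjusted p = 0.772) and, on the other side, RACGAP1, a cytokinesis gene at 72.7 kb (-0.44, edgeR adjusted p = 0.00164). TMBIM6, another TMBIM family gene, lies 102 kb from FAIM2 and moved by -0.42 (edgeR adjusted p = 0.00182).

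SUSD2 and MFAP2 each lay between 2 genes whose means in S239D and WT were close. CABIN1, 2.86 kb from SUSD2, stood at 114 and 116 CPM in WT and S239D (0.024, edgeR adjusted p = 0.848), and SPECC1L on the other side was at 0.094 (edgeR adjusted p = 0.476). Of the 24 tested neighbours of SUSD2, 4 were called lower and 6 higher. MMP11, a matrix metalloproteinase gene 397 kb away, fell (-1.09, edgeR adjusted p = 0.00014), as did an entry of GGT1, a symbol carried by 2 entries of a family whose copies can share reads (-1.26, edgeR adjusted p = 0.000678). The other GGT1 entry was at -0.60 (edgeR adjusted p = 0.0474), a call lost in 6 of 17 alternatives (adjusted p 6.4e-05 to 0.354 over all of them). Both entries are among the 4 called lower. CROCC, 1.54 kb from MFAP2, stood at 33.9 and 33.1 CPM in WT and S239D (-0.037, edgeR adjusted p = 0.871), and ATP13A2, 5.33 kb away on the other side, was at -0.17 (edgeR adjusted p = 0.157). Of 15 tested neighbours of MFAP2, 2 were called lower and 3 higher. PADI2, a peptidylarginine deiminase gene, was lower (-1.72, from 1.13 to 0.357 CPM, edgeR adjusted p = 0.0248) and the pseudogene CROCCP3 higher (1.07, edgeR adjusted p = 0.00557). The PADI2 call was lost with DESeq2 (adjusted p = 0.0717) and without WT replicate 1 (-1.28, edgeR adjusted p = 0.151), WT replicate 3 (edgeR adjusted p = 0.0542) or S239D replicate 3 (edgeR adjusted p = 0.1), over a range of 0.0149 to 0.151. The CROCCP3 call was lost with limma on TPM (0.71, adjusted p = 0.117, over the alternatives 0.000586 to 0.117).

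DGKG had no neighbour called lower past 2-fold. ETV5, an ETS factor gene on the same strand whose annotated span overlaps that of DGKG, stood at 46.5 CPM in WT and 44.3 CPM in S239D (-0.070, edgeR adjusted p = 0.586). TRA2B, 168 kb away, was at -0.015 (edgeR adjusted p = 0.905), and TBCCD1, 184 kb away on the other side, at -0.33 (edgeR adjusted p = 0.0392). The TBCCD1 call was lost in 8 of 17 alternatives (adjusted p 0.00482 to 0.169 over all of them), namely without WT replicate 1 or 3, S239A replicate 1, or S239D replicate 1 or 3, without a filter, with DESeq2 and with limma on TPM. Of 10 tested neighbours 2 were called lower and 1 higher, and the 885 tested genes of chromosome 3 had a median of 0.22 in S239D against WT. Whether the library preparation kept strand is not given, so reads of overlapping genes could be shared. The other genes that overlap a member in the table had at most 4 counts in the libraries of any group.

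**Figure D4:**
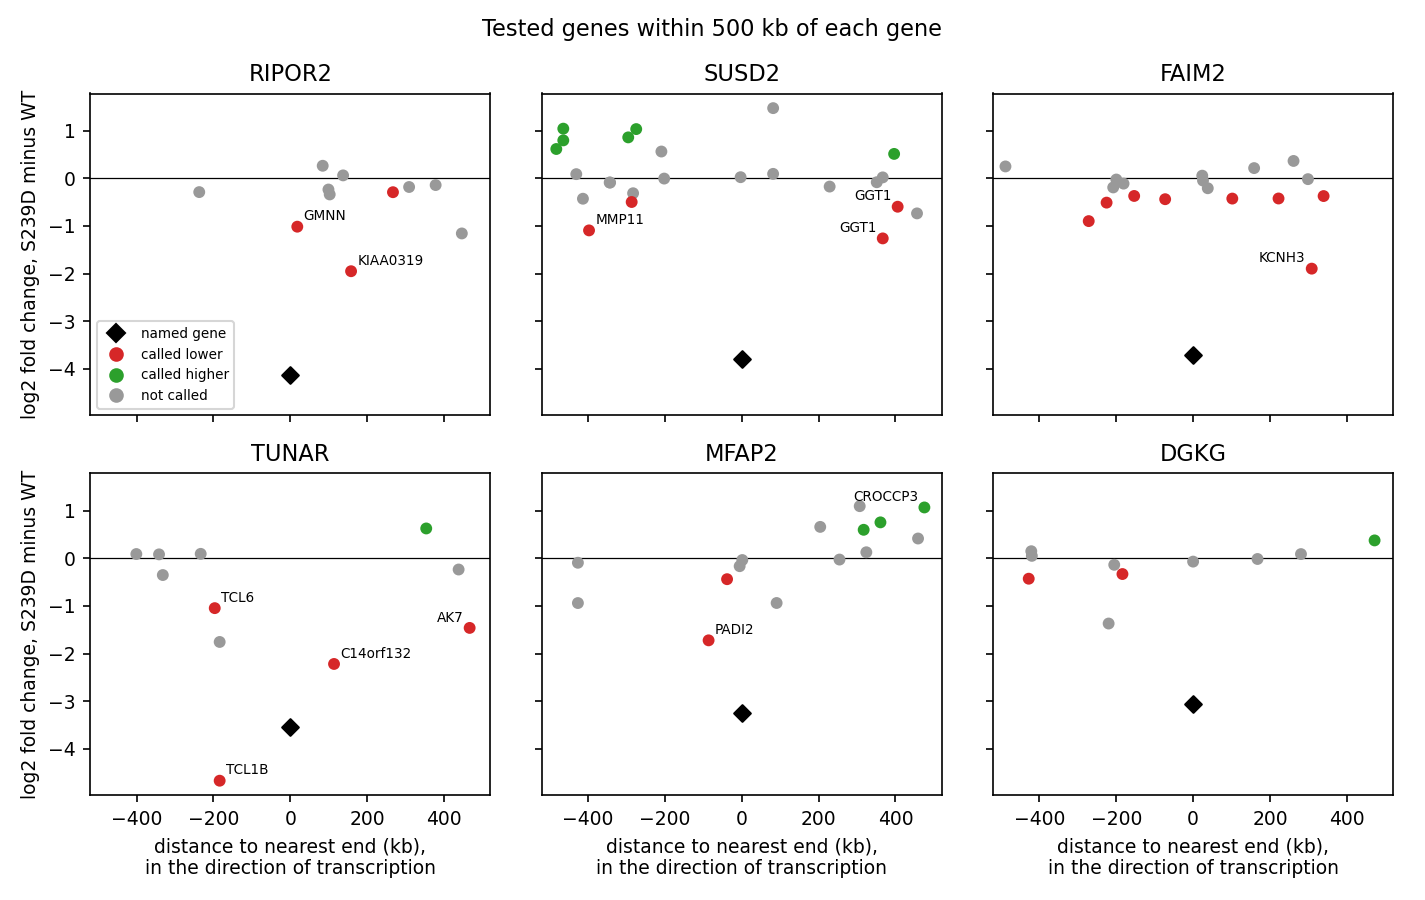
Log2 fold change of S239D against WT for tested genes within 500 kb, plotted against distance in kb from the nearest end of the named gene in its direction of transcription (overlap at 0), with black diamonds for the named gene. TCL1B, C14orf132, TCL6 and AK7 lie low around TUNAR, while the genes next to SUSD2, MFAP2 and DGKG sit near 0.

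Relatives and partners of each gene were read from 6 lists. Together these held 132 genes, of which 104 were tested, and 37 were called lower (35.6%) and 13 higher (12.5%) in S239D than in WT, beside 21.7% and 19.7% of all genes tested. Their median log2 fold change was -0.14. None of the 104 was called in S239A against WT (0 with edgeR, where 1 of 16213 genes was called). Without the S239A and S239D replicate 2 libraries, the setting chosen after seeing the data in which calls over all genes rose to 8522, 41 of 106 were called lower in S239D.

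Microfibril and elastic fibre genes, the surroundings of MFAP2, had 11 of 20 tested members lower and 1 higher, with a median of -0.56. EFEMP1, the extracellular matrix protein fibulin-3, fell from 6.52 ± 1.35 CPM in WT to 0.607 ± 0.317 CPM in S239D (SD, n = 3). Its log2 change of -3.35 (SE 0.34, edgeR adjusted p = 4.84e-06) stands beside -3.26 for MFAP2. EFEMP1 is itself among the 71 genes at -3 or below, and its mean over the 9 libraries, 4.75 CPM, lies under the level of 5 CPM. LOX, the lysyl oxidase that crosslinks elastin and collagen, fell from 8.62 ± 0.605 to 3.09 ± 0.477 CPM (-1.48, edgeR adjusted p = 4.98e-05). TGFB2, a growth factor held by the matrix, was the 1 gene that rose (0.82, edgeR adjusted p = 0.00117). The fibrillin gene FBN1 was low throughout, at 1.19 CPM in WT and 0.766 CPM in S239D (-0.60, edgeR adjusted p = 0.332), and FBN2 and the paralogue MFAP5 did not pass the filter, MFAP5 at 0.906 CPM in WT and 0.111 CPM in S239D.

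Sushi-domain relatives of SUSD2 and its ligand had 8 of 14 tested members lower and 1 higher, with a median of -0.77. The ligand LGALS1, galectin-1, was at 198, 171 and 166 CPM in WT, 173, 161 and 211 CPM in S239A and 59.9, 41.6 and 60.8 CPM in S239D, so that S239D minus WT came to -1.72 in log2 units (SE 0.141, edgeR adjusted p = 7.11e-07). SUSD3 fell from 3.16 to 0.626 CPM (-2.29, edgeR adjusted p = 0.00029), SUSD4 from 1.37 to 0.304 CPM (-2.16, edgeR adjusted p = 0.00666) and SUSD5 from 5.27 to 2.83 CPM (-0.92, edgeR adjusted p = 0.0155). The last 2 calls were lost without WT replicate 1 (SUSD4 -1.57, edgeR adjusted p = 0.0625, and SUSD5 -0.56, edgeR adjusted p = 0.133) and with limma on TPM (adjusted p = 0.167 and 0.309). Their lowest adjusted p over the alternatives was 0.00268 and 0.006. SUSD6 did not pass (0.21, edgeR adjusted p = 0.116), and SUSD1, at about 1 CPM in each group, was not tested. SEZ6, a neuronal sushi-domain protein, fell from 61.3 to 30.9 CPM (-0.99, edgeR adjusted p = 3.03e-06), and CSMD1 rose (0.33, edgeR adjusted p = 0.00978), a call lost with limma on TPM (0.13, adjusted p = 0.53) and without WT replicate 2 (edgeR adjusted p = 0.0509, over the alternatives 0.00217 to 0.53).

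Diacylglycerol signalling genes around DGKG went both ways, with 9 of 29 tested lower and 5 higher and a median of 0.015. Among the other kinases of the family, DGKQ rose from 60.5 to 75.9 CPM (0.32, edgeR adjusted p = 0.028). It was no longer called without WT replicate 1 (edgeR adjusted p = 0.0813), WT replicate 2 (edgeR adjusted p = 0.114), S239D replicate 1 (edgeR adjusted p = 0.0953) or S239D replicate 3 (edgeR adjusted p = 0.0575), over a range of 0.000311 to 0.114. DGKA (-0.26), DGKD (0.20), DGKE (0.25), DGKH (0.32) and DGKZ (-0.10) did not pass (edgeR adjusted p = 0.0976 to 0.429), and DGKB, DGKI and DGKK were not tested. No other diacylglycerol kinase gene of the list was called lower. Of the kinases that diacylglycerol activates, PRKCH fell from 13.3 to 4.22 CPM (-1.64, edgeR adjusted p = 4.64e-06). UNC13B, a vesicle priming protein that binds diacylglycerol, rose (0.39, edgeR adjusted p = 0.0011). UNC13D, of the same family, also rose (1.42, edgeR adjusted p = 0.00123), a call lost with limma on TPM (0.77, adjusted p = 0.151, over the alternatives 0.000114 to 0.151).

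The lists around RIPOR2 and FAIM2 had shares of lower genes near the background (23.5% and 17.6%). Of 17 tested genes of RHOA signalling 4 were lower and 3 higher, with a median of -0.086. RHOA itself, the target of RIPOR2, stood at 526 CPM in WT and 505 CPM in S239D (-0.058, edgeR adjusted p = 0.631). RHOB, a short-lived small GTPase, fell (-0.55, edgeR adjusted p = 6.34e-05), as did the GTPase effector RTKN (-0.46, edgeR adjusted p = 0.00317, lost with limma on TPM, adjusted p = 0.137, over the alternatives 9.86e-05 to 0.137). ROCK1, a kinase activated by RHOA, rose (0.56, edgeR adjusted p = 0.00279), and so did the paralogue RIPOR1, from 80.1 to 102 CPM (0.35, edgeR adjusted p = 0.00765). RIPOR3 was at 0.361 CPM in WT and not tested. Of 17 tested genes of the TMBIM family and the FAS pathway 3 were lower and 3 higher, with a median of 0.053. TMBIM6 and TMBIM1, both inhibitors of cell death, fell from 1463 to 1089 CPM and from 143 to 111 CPM (-0.42 and -0.37, edgeR adjusted p = 0.00182 and 0.00289), TMBIM6 not with limma on TPM (-0.25, adjusted p = 0.288, over the alternatives 2.18e-09 to 0.288). TMBIM4 (0.060) and GHITM (-0.17) did not pass (edgeR adjusted p = 0.664 and 0.0824). CFLAR, an inhibitor of caspase-8 activation, rose from 29.5 to 50.9 CPM (0.79, edgeR adjusted p = 0.000221, lost with limma on TPM, adjusted p = 0.113, over the alternatives 3.62e-08 to 0.113) and the death receptor gene TNFRSF10B from 188 to 263 CPM (0.48, edgeR adjusted p = 0.000235). FAS averaged 11.2 CPM in WT and 14.8 CPM in S239D (0.41, edgeR adjusted p = 0.0801), and its ligand gene FASLG had 0 counts in all 9 libraries.

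Of the reported partners and targets of TUNAR 7 were tested, with 2 lower and 0 higher and a median of -0.025. The RNA-binding proteins HNRNPK (-0.11, edgeR adjusted p = 0.24), NCL (0.055, edgeR adjusted p = 0.622) and PTBP1 (0.021, edgeR adjusted p = 0.843) did not pass. SOX2, a pluripotency and neural factor, was at 2.90 CPM in WT and 1.15 CPM in S239D (-1.41, edgeR adjusted p = 0.0345). The SOX2 call was lost in 5 of 17 alternatives, without WT replicate 1 (edgeR adjusted p = 0.125), WT replicate 3 (edgeR adjusted p = 0.14), S239D replicate 1 (edgeR adjusted p = 0.0966) or S239D replicate 3 (edgeR adjusted p = 0.126) or in the limma fit on TPM (adjusted p = 0.224), over a range of 0.00171 to 0.224. ATP2A3, a calcium pump of the endoplasmic reticulum, fell from 20.3 to 3.39 CPM (-2.59, SE 0.163, edgeR adjusted p = 7.25e-08), while ATP2A2, the pump that the TUNAR microprotein is reported to bind, stood at 594 and 584 CPM (-0.025, edgeR adjusted p = 0.815).

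**Figure D5:**
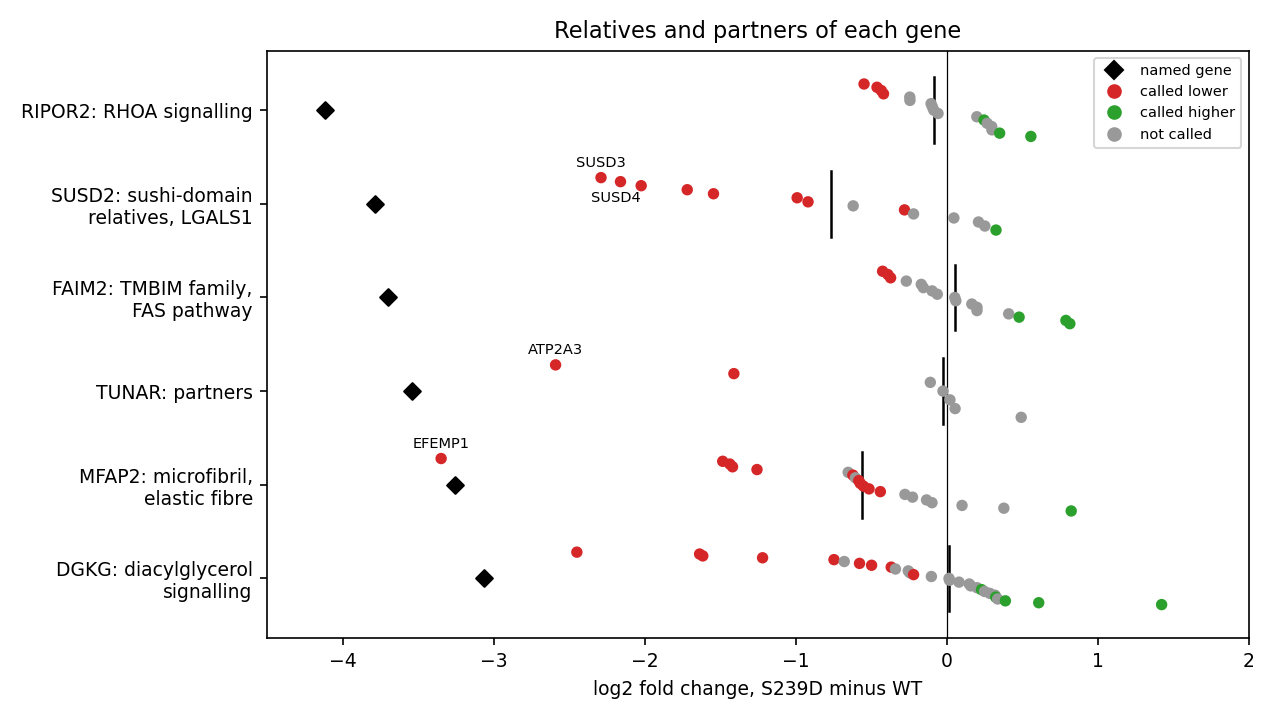
Log2 fold change of S239D against WT for tested genes of each list, with black diamonds for the named gene and vertical bars for list medians. Medians lie at -0.77 for the sushi-domain list and -0.56 for the microfibril list and between -0.086 and 0.053 for the other 4.

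The genes whose levels followed the 6 most closely were found over the 9 libraries by the root mean square difference of log2 CPM, each gene centred on its own mean. The points share their libraries, and all genes named here were lower in S239D, the contrast that chose the 6 (r 0.976 to 0.997 over the 9 libraries, as a description). TUNAR was nearest to GLI1 (0.202), CRISP3 (0.212) and PTGER3 (0.214), and RIPOR2 to PTGER3 (0.213), CACNG7 (0.39) and TCL1B (0.398), the TUNAR neighbour. SUSD2 was nearest to CRISP3 (0.235), TSPAN7 (0.273) and PTGER3 (0.287), and FAIM2 to TSPAN7 (0.236), GLI1 (0.239) and CRISP3 (0.32). MFAP2 was nearest to EFEMP1 (0.188), MUC3A (0.217) and HOPX (0.226). DGKG was nearest to KLF12 (0.185), C3 (0.195) and UBE2L6 (0.272), which like DGKG had higher means in S239A than in WT (23.4 and 16.8 CPM for KLF12, 14.9 and 9.46 CPM for C3, 5.11 and 3.26 CPM for UBE2L6). Among the 6 themselves the closest pair was SUSD2 and TUNAR (0.167) and the most distant RIPOR2 and MFAP2 (0.528).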

How the data were processed

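Polyadenylated RNA was captured on oligo-dT beads and random-primed, per the labels' protocols. The authors deposited expected counts per gene and TPM, scaled within each library by the authors. The submitters' processing notes name Trimmomatic 0.39 and RSEM. Aligner, build, annotation and strandedness are not given in the sources used here. GENCODE release 29 held 96.52% of the gene identifiers, and 92.93% of those had a gene end in common with it.

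Expected counts were rounded, filtered with filterByExpr, scaled by TMM and tested by the quasi-likelihood F test (two-sided) of edgeR 4.0.16 in R 4.3.3, with all 9 libraries fitted together. The 22747 genes lacking a symbol, with 1.33% of counts, stayed in. Adjustment over 16213 genes was by Benjamini and Hochberg, with calls at 0.05. The script was tested on simulated data. The Poisson intervals of counts and the floor of 3 counts (0.307 to 0.527 CPM) cover counting error only. Intervals of log2 fold changes come from the edgeR fit and also take in the spread among libraries. Alternatives were RLE scaling, DESeq2 1.42.0, limma 3.58.1 on log2(TPM + 1) where 3 libraries reached 1 TPM, other filters and windows, pairwise fits, a replicate block and single libraries left out. Removing both replicate 2 libraries of the variants was added after seeing the data.

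Same-numbered libraries of S239A and S239D deviated together weakly (r 0.1003, 0.2512 and 0.1027, across genes), past the 0.1 taken to mark pairing, while S239A replicate 3 was closer to S239D replicate 1 (0.15). The main fit nevertheless held no pairing, and the replicate block was run as an alternative only. In both variants replicate 2 had the highest mitochondrial share of its group (5.38% in S239A and 6.01% in S239D). Same-numbered pairs with WT had r of -0.0087 to 0.0914 and were not treated as paired.

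The genes and lists were chosen with earlier results of these data known. Named were all 6 genes, the nearest tested neighbour with a symbol on each side, called neighbours past 2-fold with a symbol, close relatives, the 2 called genes of each list and direction with the smallest adjusted p, and the 3 genes of at least 1 CPM most alike in pattern. Other named genes (RHOA, FAS, FASLG, TCL1A, ATG2B, HNRNPK, NCL, PTBP1, ATP2A2) were added after their values were seen. Some items that these rules would name are not reported here.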

Additional observations from a re-analysis of the deposited data

How the results depend on the processing

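Of the counts over all genes, that of S239A against WT depended most on the method: 1 gene was called with edgeR, 66 with DESeq2, 2 with limma on log2(TPM + 1), 142 without a filter, 6 with the replicate block and 874 without both variants' replicate 2 libraries, and 1 to 8 when single libraries were left out (8 without S239D replicate 2, 2 without WT replicate 3). The cause was not tested. S239D against WT gave 6708 calls (5322 to 7533 with single libraries left out, 4351 with limma on log2(TPM + 1)), and S239D against S239A 7064 (5853 to 7182, and 4697 with limma). With the replicate block S239D against S239A gave 7610 calls, and in S239A against WT the block led to a call of 0 of the 6 genes. Neighbours called lower in S239D were 23 of 89, 18 to 26 with single libraries left out, 14 of 92 with limma, and, by the width of the window, 13 of 41 within 250 kb and 43 of 155 within 1 Mb. List genes called lower were 37 of 104, 28 to 40 with single libraries left out and 18 of 101 with limma. The 3 windows use the main fit, where 21.7% of all genes were called lower. For limma and the fits with libraries left out, the share of all genes called lower is not given, so these counts are not read against a background. Limma on log2(TPM + 1) compresses low values by its pseudocount of 1.

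Of the 6 genes in S239A against WT, DGKG passed in 2 alternatives and the other 5 in 0 of those that gave an adjusted p, which were all 17 for SUSD2 and TUNAR and all but DESeq2 for the other 4. The log2 fold change of S239D against WT ran from -4.39 to -2.33 for RIPOR2, -3.96 to -3.04 for SUSD2, -4.16 to -2.89 for FAIM2, -3.57 to -3.29 for TUNAR, -3.47 to -3.04 for MFAP2 and -3.27 to -1.84 for DGKG. Depth limits RIPOR2 most, since its S239D libraries held 3 to 7 counts.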
